A study of Mus musculus with 6 samples.

Results

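The Hox cluster genes were examined in hearts of E10.5 mouse embryos, a mid-gestation stage at which chambers form along the looped heart tube. A gene was taken as a member when the platform annotation gave a probe set the symbol Hoxa, Hoxb, Hoxc or Hoxd followed by a number and no other symbol. By this rule 33 of the 39 mouse Hox genes were measured, among 18193 genes in all, and each was represented by its probe set with the highest mean log2 signal over the 6 arrays. Hoxb8 and Hoxd4 share every named probe set with a neighbouring Hox gene, and the rest were not analysed here. Groups were 3 arrays of RhoE KO heart RNA and 3 of wild-type (WT) heart RNA, on the C57BL/6N background. RhoE is the protein of the gene Rnd3, an atypical small GTPase, and a gene trap removes it from every tissue of the KO embryos. Per the series' design text the embryos came as littermates, and such knockouts do not survive past mid-gestation. Whether an array holds RNA of 1 heart or of pooled hearts is not given in the sources used here, so p-values measure the spread between these arrays.

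Hox genes encode homeodomain transcription factors and lie in 4 clusters in the mouse. Within a cluster they are numbered by paralog group from the 3' end to the 5' end, and the order along the chromosome follows the order of expression along the head-to-tail axis, with low numbers active farther forward. Around the heart, low-numbered Hox genes are known from the posterior second heart field, a progenitor pool that feeds the outflow tract and the atria, and from the cardiac neural crest. Retinoic acid made by Aldh1a2 switches them on there. Hox proteins bind DNA together with cofactors of the TALE class, such as Pbx and Meis proteins.

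Promoter windows let such motifs be looked for, and 4 are printed here. Hoxa2, Hoxa5 and Hoxb4 are among the genes that gave signal on every array, and the groups of Hoxb1 did not overlap. The windows come from RefSeq on build GRCm38.p6 and run from 250 bases before to 50 bases after the annotated start, 5' to 3' on the gene's strand. Of the 33 measured genes 19 had such a window. Capitals mark matches, on either strand, to the CCAAT box (CCAAT), to the retinoic acid receptor core (AGGTCA) and to a Hox-Pbx site (TGATNNAT).
Hoxa2 (chr6:52164782-52165081, minus strand): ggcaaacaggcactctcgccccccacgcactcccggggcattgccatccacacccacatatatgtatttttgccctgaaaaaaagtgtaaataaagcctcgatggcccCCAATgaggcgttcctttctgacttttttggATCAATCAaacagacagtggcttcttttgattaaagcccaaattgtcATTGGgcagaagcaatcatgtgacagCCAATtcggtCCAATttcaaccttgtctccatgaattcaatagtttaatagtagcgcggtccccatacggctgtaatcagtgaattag
Hoxa5 (chr6:52204538-52204837, minus strand): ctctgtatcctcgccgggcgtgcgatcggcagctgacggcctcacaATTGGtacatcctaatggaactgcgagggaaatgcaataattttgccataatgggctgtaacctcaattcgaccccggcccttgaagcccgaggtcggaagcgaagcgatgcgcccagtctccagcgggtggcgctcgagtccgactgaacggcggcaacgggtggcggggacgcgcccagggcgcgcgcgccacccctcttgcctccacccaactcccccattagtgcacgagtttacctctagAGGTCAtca
Hoxb4 (chr11:96318017-96318316, plus strand): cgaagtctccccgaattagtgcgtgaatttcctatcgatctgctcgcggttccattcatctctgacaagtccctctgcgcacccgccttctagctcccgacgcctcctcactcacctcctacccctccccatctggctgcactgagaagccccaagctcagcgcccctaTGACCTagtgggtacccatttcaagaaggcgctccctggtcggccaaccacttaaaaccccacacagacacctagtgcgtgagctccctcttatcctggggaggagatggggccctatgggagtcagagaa
Hoxb1 (chr11:96365508-96365807, plus strand): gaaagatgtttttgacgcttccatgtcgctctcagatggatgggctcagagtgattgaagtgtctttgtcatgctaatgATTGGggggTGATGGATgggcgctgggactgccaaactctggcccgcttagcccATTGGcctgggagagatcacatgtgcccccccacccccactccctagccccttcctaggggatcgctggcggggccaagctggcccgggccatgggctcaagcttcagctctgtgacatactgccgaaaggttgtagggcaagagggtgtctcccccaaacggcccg

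The windows differ in which letters they hold. Hoxa2 has 4 CCAAT boxes and 1 Hox-Pbx match, Hoxa5 has 1 CCAAT box and 1 AGGTCA, Hoxb4 has 1 AGGTCA, and Hoxb1, a gene known to maintain its own transcription with Pbx in the hindbrain, has 2 CCAAT boxes and 1 Hox-Pbx match. Over the 21 windows of the 19 genes (2 genes have 2 starts each), AGGTCA occurred in 6, or 28.6%, against 16.3% of all 32851 windows of that length. The CCAAT box occurred in 57.1% against 37.4%, the Hox-Pbx letters in 14.3% against 8.85%, and the TATA box (TATAAA) in 9.52% against 13.6%. The GC box (GGGCGG), not marked in the printed windows, was near its share over all windows, at 38.1% against 35.7%. None of the searched motifs overlapped another in the 4 windows printed. The windows of Hoxa9, also with signal on every array, and of Hoxa3, detected in WT, hold no CCAAT box, AGGTCA or Hox-Pbx match. Those windows are not printed. Hox windows held a median of 15 CpG dinucleotides and a GC content of 58.0%, against 7 and 52.7% over all windows. The 5 windows of genes that were detected on every WT array had a median GC content of 58.0%, against 58.3% in the 16 windows of the other measured Hox genes. A match is a description of the letters only.

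The arrays carry whole hearts, and each probe set has a MAS5 signal on a linear scale. All 8 cardiomyocyte markers were far above the low-signal limit, with Myh6, the atrial myosin heavy chain, at 29549 to 36172 in KO and 37438 to 38790 in WT. Rnd3 read 5.89, 12.3 and 121 on KO arrays 1, 2 and 3 and 909, 954 and 862 on WT arrays 1, 2 and 3, as the labels have it, though KO array 3 stayed above the low-signal limit defined below. Xist, which is transcribed from the inactive X of female cells, read 539, 8884 and 28.4 in KO and 10251, 12474 and 11878 in WT. Xist was thus low on KO arrays 1 and 3 and high on KO array 2 and all WT arrays, and the labels give no sex. Its part in the Hox values was not tested beyond a fit with Xist as a covariate, in which 0 Hox genes passed. KO array 3 also stood apart in genes of the inflow end of the heart, as described with the Hox values. The array number, 3 per group, limits the precision. A low-signal limit was set on each array at the 40th percentile of the probe sets other than controls, and it was 44.5 to 50.6 on the KO arrays and 49.3 to 52.8 on the WT arrays. It is a working limit and not a measured background. In such whole-heart RNA, fewer cells of a type and less RNA per cell cannot be told apart.

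Hearts at this stage carried transcripts of genes at the 3' end of the Hoxa and Hoxb clusters. Above the limit on all 3 arrays were 6 Hox genes in KO hearts, namely Hoxa2, Hoxa5, Hoxa9, Hoxb2, Hoxb3 and Hoxb4. In WT hearts the same 6 and Hoxa3 and Hoxa4 were detected, 8 in all. These counts compare with 64.7% of all 18193 genes in either group. Of the 13 measured genes of paralog groups 1 to 5, 5 were detected in KO and 7 in WT. Of the 20 measured genes of paralog groups 6 to 13, 1 was detected in KO and 1 in WT, Hoxa9 in both. No measured gene of the Hoxc or Hoxd cluster was above the limit on all arrays of a group (0 of 7 and 0 of 8). In all, 14 of the 33 genes lay below the limit on all 6 arrays, against 22.3% of all genes.

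The genes detected in WT sit side by side in their clusters, Hoxb2 to Hoxb4 on chromosome 11 and Hoxa2 to Hoxa5 on chromosome 6, with Hoxa9 farther 5'. The Hoxa3 and Hoxa4 counts differed between groups through 1 array: without KO array 3, both were above the limit on the other KO arrays, and 11 Hox genes were detected in KO, with Hoxc4, Hoxc6 and Hoxd3 added. The WT count was 8 to 9 when any 1 WT array was left out. When 2 arrays of a group sufficed, 11 were detected in KO and 10 in WT. With the limit at the 50th percentile it was 4 in KO (Hoxa5, Hoxb2, Hoxb3 and Hoxb4) and 5 in WT, where Hoxa3 was the other one. A count can only stay or rise when fewer arrays are required. The share of all genes was not computed for these other settings, so the changed counts cannot be read as particular to Hox genes.

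**Figure D1:**
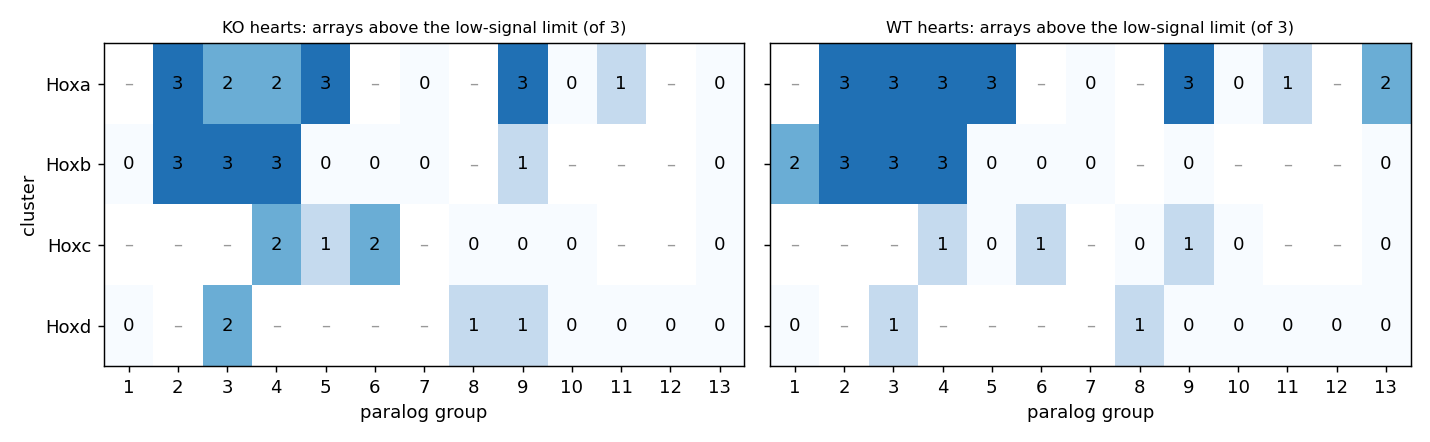
Number of arrays (0 to 3) above the low-signal limit for each measured Hox gene, KO hearts in the left panel and WT hearts in the right one; rows are the 4 clusters, columns the paralog groups from 3' to 5', and a dash marks a gene not measured by the rule. Cells with all 3 arrays lie in paralog groups 2 to 5 of Hoxa and Hoxb, besides Hoxa9.

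In the comparison of KO with WT hearts, which asks whether loss of RhoE alters the transcriptome before the embryos die, no Hox gene passed the test. Testing was restricted to genes whose probe set exceeded the limit on 3 or more of the 6 arrays, which held for 11 Hox genes and not for 22. Of the 11, 0 passed an adjusted p of 0.05 in limma (Benjamini-Hochberg over all 12712 tested genes) and 0 had an unadjusted p below 0.05, while 1.27% and 20.3% of all tested genes did so. By direction the 0 higher and 0 lower Hox genes stand beside 0.787% higher and 0.488% lower in KO among all tested genes. The smallest adjusted p of a Hox gene was 0.476. By sign 5 were positive and 6 negative, KO minus WT, for a median log2 fold change of -0.06, against -0.04 over all tested genes. The groups did not overlap for 1 of the 11, against 26.3% of all tested genes (10.8% higher and 15.5% lower in KO). These p-values do not show that the genes stayed the same: the median standard error of a Hox fold change was 0.38 on the log2 scale, against 0.14 over all tested genes, and the intervals below give the changes that remain possible.

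Paralog group 2 marks the front of the Hox domain, in the hindbrain and the neural crest that leaves it. Hoxb2, which with Hoxa2 patterns the hindbrain and the second pharyngeal arch, read 296, 319 and 307 on KO arrays 1, 2 and 3 and 279, 394 and 406 on WT arrays 1, 2 and 3. The KO values lay within the WT range, with WT array 1 the lowest of all. Its log2 fold change was -0.21 (SE 0.16, 95% interval -0.56 to 0.14, limma adjusted p = 0.496). Hoxa2 read 75.6, 160 and 60.1 in KO and 83.2, 92.6 and 58.0 in WT. KO array 2 was the highest and the others intermixed, for a log2 fold change of 0.23 (SE 0.38, interval -0.60 to 1.07, limma adjusted p = 0.767). Without KO array 2 it was -0.18.

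Paralog group 3 genes pattern the pharyngeal arches, and Hoxa3 is needed for the thymus, the parathyroid and the carotid body. Hoxa3 read 82.9, 119 and 43.9 in KO and 87.9, 95.4 and 92.1 in WT. The WT arrays lay within a narrow range, and the KO arrays lay on both sides of it. The log2 fold change was -0.28 (SE 0.36, interval -1.07 to 0.51, limma adjusted p = 0.701), and 0.11 without KO array 3. A second Hoxa3 probe set read 46.6, 99.8 and 38.5 in KO and 72.2, 117 and 66.2 in WT, again with array 2 the highest of each group. Hoxb3 read 242, 476 and 229 in KO and 297, 363 and 279 in WT. KO array 2 was the highest and KO arrays 1 and 3 the lowest, so that the groups' mean signals nearly met, at 315 ± 139 in KO and 313 ± 44.1 in WT (SD, n = 3 each), with a log2 fold change of -0.06 (SE 0.25, interval -0.61 to 0.48). A second Hoxb3 probe set read 66.9, 73.4 and 57.0 in KO and 24.4, 49.1 and 77.6 in WT and had the other sign, 0.53 (SE 0.45). Hoxd3 was near the limit, at 57.4, 89.9 and 28.5 in KO and 9.57, 73.5 and 26.7 in WT, and gave 0.99 (SE 0.75, interval -0.65 to 2.64). That value was 0.25 without WT array 1 and 1.72 without WT array 2. The groups overlapped for all 3 genes.

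Among paralog groups 4 and 5, whose members act in the hindbrain, the cervical region and the lung and foregut mesenchyme, no tested gene passed. Hoxb4 read 128, 121 and 126 in KO and 135, 152 and 111 in WT. All KO arrays lay inside the WT range, and the log2 fold change was -0.07 (SE 0.21, interval -0.52 to 0.38, limma adjusted p = 0.877). Its dimmer probe set had 0.01 (SE 0.42). Hoxa4 read 56.7, 86.9 and 11.3 in KO and 69.0, 92.9 and 52.1 in WT. KO arrays 1 and 2 lay inside the WT range and KO array 3 far below it. The estimated difference on the log2 scale, -0.86 (SE 0.66, interval -2.32 to 0.60, limma adjusted p = 0.50), became 0.02 without KO array 3. A second Hoxa4 probe set, not tested, read 40.6, 53.5 and 8.89 in KO and 34.2, 24.2 and 14.4 in WT. That probe set exceeded the limit on KO array 2 alone, and its mean difference had the other sign. Hoxc4 was likewise lowest on KO array 3, at 84.7, 137 and 2.58 in KO and 34.0, 88.9 and 29.9 in WT, with -0.53 (SE 1.22, interval -3.20 to 2.14) and 1.26 without KO array 3.

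Hoxa5, which is required for lung and trachea development, gave different pictures on its 2 probe sets. The brighter one, of the kind whose probes can bind related transcripts as well, read 734, 886 and 753 in KO and 698, 696 and 734 in WT. These groups did not overlap, though KO array 1 and WT array 3 were almost equal, and the log2 fold change was 0.15 (SE 0.11, interval -0.09 to 0.40, limma adjusted p = 0.476). The other Hoxa5 probe set read 168, 393 and 4.05 in KO and 189, 193 and 171 in WT. There KO array 2 was the highest of the 6, KO array 3 was below the limit, and the fold change was -1.51 (SE 1.24, limma adjusted p = 0.559). With the probe sets averaged Hoxa5 had -0.68.

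Of the higher paralog groups, Hoxa9, a regulator of blood stem cells and of the trunk, was the only measured gene above the limit on all 6 arrays. It read 207, 69.8 and 122.8 in KO and 110, 124 and 67.1 in WT. KO array 1 was the highest and the other arrays mixed, for a log2 fold change of 0.32 (SE 0.38, interval -0.52 to 1.15, limma adjusted p = 0.679), or -0.07 without KO array 1. A second Hoxa9 probe set was below the limit on all 6 arrays, at 4.42 to 21.8 in KO and 3.66 to 36.9 in WT. Hoxc6, a thoracic gene, read 54.3, 90.5 and 35.7 in KO and 61.9, 29.99 and 40.5 in WT, with 0.41 (SE 0.48, interval -0.65 to 1.46), or 0.06 without KO array 2 and 0.73 without KO array 3. Like the brighter Hoxa5 probe set and the second Hoxa4 one, this probe set is of the kind whose probes can bind related transcripts as well. A second tested Hoxc6 probe set read 19.7, 59.3 and 71.5 in KO and 64.3, 5.66 and 2.60 in WT and had 2.16 (SE 1.19, limma adjusted p = 0.372). The groups overlapped on all 3 Hoxc6 probe sets. Among the KO arrays, the probe set given first was highest on array 2 and the others on array 3. The level of Hoxc6 in these hearts is thus uncertain.

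**Figure D2:**
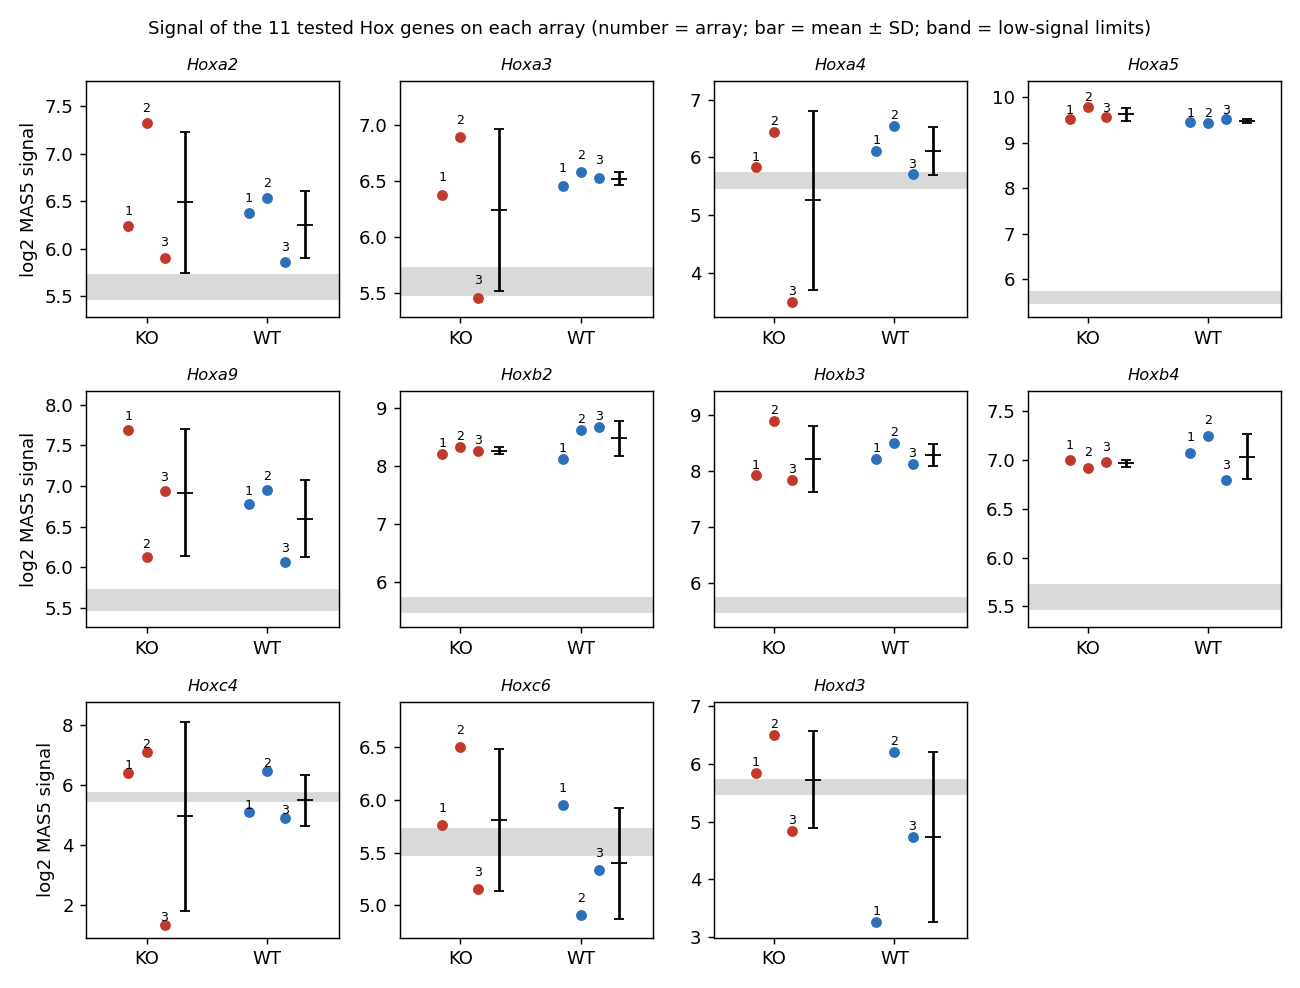
Log2 MAS5 signal of the 11 tested Hox genes on every array, KO (red) left of WT (blue); numbers name the array, the bar is the mean ± SD of the log2 signals of a group (n = 3), and the grey band spans the low-signal limits of the 6 arrays. KO array 2 is the highest KO array in 9 of the 11 panels and KO array 3 the lowest in 7; each panel has its own scale.

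**Figure D3:**
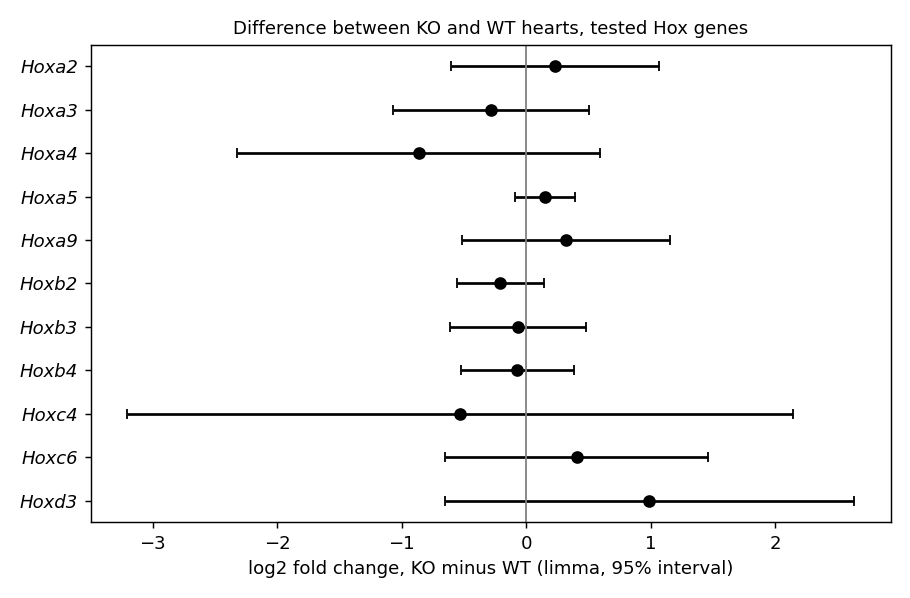
Log2 fold change, KO minus WT, of the 11 tested Hox genes with limma's 95% interval. All intervals cross 0; they are narrowest for Hoxa5 (-0.09 to 0.40) and widest for Hoxc4 (-3.20 to 2.14).

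The other 22 genes exceeded the limit on at most 2 arrays: 14 on none, 4 on 1 (Hoxb9, Hoxc5, Hoxc9 and Hoxd9) and 4 on 2. Hoxb1, the gene of the posterior second heart field and of the fourth hindbrain segment, read 26.3, 38.2 and 23.4 in KO and 49.9, 70.8 and 50.6 in WT. The groups did not overlap, but no KO array exceeded the limit and 2 of the 3 WT arrays did. Only a bound on the ratio of the group means can thus be given, at least 1.17-fold lower in KO with KO values raised to the limit. The bound makes no allowance for spread and takes WT array 1 as read, below its limit. In a fit without the filter on dim genes the limma adjusted p of Hoxb1 was 0.300. Hoxd11, a gene of limb and kidney, was below the limit on all 6 arrays, at 3.33, 9.66 and 4.48 in KO and 16.2, 22.5 and 20.4 in WT, where no fold is given. With Hoxa5 these are the 3 of 33 measured genes whose groups did not overlap, 1 higher and 2 lower in KO, against 21.5% of all genes, 9.06% higher and 12.5% lower. In the fit without the filter, where 1 of 18193 genes (0.0055%) passed, 0 Hox genes passed and 3 of 33 had an unadjusted p below 0.05, against 15.7% of all genes. There 13 had a positive sign and 20 a negative one, for a median of -0.09 against -0.04 over all genes. Just outside the filter, on 2 arrays, were Hoxa11, Hoxa13, Hoxb1 and Hoxd8; just inside it, on 3 arrays, were Hoxc4, Hoxc6 and Hoxd3.

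Among the tested Hox genes the same arrays were often the highest and the lowest of their genotype. The highest KO array was KO array 2 for 9 of the 11 tested Hox genes, against 36.0% of all tested genes, and the lowest was KO array 3 for 7, against 32.6%. In WT, array 2 was the highest for 8 of the 11, against 32.4%, and array 3 the lowest for 6, against 34.3%. Over all 33 genes, KO array 2 was the highest KO array for 22 (35.6% of all genes) and KO array 3 the lowest for 17 (34.2%). In WT, array 2 was the highest for 16 of the 33 (33.6%), but the lowest array was WT array 1, 2 or 3 for 11, 12 and 10 genes, so that no WT array stood out as the lowest. Relative to the mean of the WT arrays, the median log2 deviation of the 11 genes was -0.02, 0.37 and -0.24 on KO arrays 1, 2 and 3 and -0.02, 0.22 and -0.16 on WT arrays 1, 2 and 3, while that of all tested genes lay between -0.04 and 0.01 on every array. Within each genotype these medians spanned more than the median KO minus WT difference of -0.06. The pattern was noticed in these values and has no test. Hoxc4 and Hoxd3 exceeded the limit only on KO arrays 1 and 2 and WT array 2. Hoxc6 did so only on KO arrays 1 and 2 and WT array 1. These genes entered the 11 through the arrays where they were high, so the filter in part set the order and the medians of the 11.

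Genes of neighbouring regions and of other tissues were set beside it. KO array 2 had the highest KO sum for the epicardium and foregut lists. It also had it for neural crest, somites, limb bud, intermediate mesoderm, liver and yolk sac, endothelium, and macrophages and platelets. For cardiomyocytes, second heart field and erythroid cells KO array 1 had the highest sum, and for neural tube and neurons KO array 3. Among the 13 cell type lists, the summed signal of epicardium and septum transversum markers was 5372 to 8704 in KO and 7785 to 8131 in WT. KO array 3 was the lowest KO array for 6 of these 6 markers, while the WT arrays had no shared order and 0 of the 6 followed the Hox order in both groups. KO array 3 was also the lowest KO array for 5 of 5 erythroid markers, of which 0 were highest on array 2 in both groups. Among cardiomyocyte markers it was the lowest for 0 of 8. A low KO array 3 was thus not particular to regions near the Hox domain. Foregut and lung endoderm markers, 4 of 7 of which were tested, summed to 298, 526 and 242 in KO and 376, 739 and 450 in WT, and 4 of the 7 were highest on array 2 in both groups. Shh, the signal of foregut epithelium and notochord, chosen after its values were seen, read 10.2, 146 and 21.4 in KO and 68.7, 113 and 86.0 in WT. Of the 7, only Epcam was above the limit on all 6 arrays. Epcam did not follow the Hox order in KO, at 149, 89.6 and 82.6, and read 138, 163 and 106 in WT. Neural tube and neuron markers summed to 765 to 890 in KO and 754 to 973 in WT. Of the 10 measured, 5 were below the limit on all arrays, among them the neural tube markers Sox1 and Olig2, and 2 were above it on all arrays, Sox3 and Tubb3. Somite and muscle precursor markers summed to 280 to 434 in KO and 280 to 371 in WT, with 3 of 8 below the limit on all arrays (Pax7, Myf5 and Uncx) and 1, Tcf15, above it on all. Intermediate mesoderm markers reached the limit in 1 of 4 measured genes. Their part in the Hox values was not tested.

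KO array 3 was low in genes of the inflow tract and sinus venosus, where blood enters the heart and which derive from the posterior second heart field. The 8 measured genes of this list were chosen after the values had been seen. All 8 lay below the WT mean on KO array 3, with a median log2 deviation of -1.23, against 0.02 and 0.01 on KO arrays 1 and 2. Shox2, Osr1 and Nr2f2 are given for their KO array 3 values, which were known when they were chosen. Shox2, a homeobox gene of the sinus venosus and the sinoatrial node, read 2181, 2074 and 96.2 in KO and 2448, 2303 and 1531 in WT. Osr1, of the posterior second heart field, read 249, 257 and 43.6 in KO and 237, 230 and 157 in WT, and Nr2f2, the atrial and venous nuclear receptor gene, 1984, 2022 and 696 in KO and 1994, 2314 and 1766 in WT. KO array 3 was far below the other arrays for these genes, as it was for Hoxa4, Hoxc4 and the dimmer Hoxa5 probe set. Tbx3, a conduction system gene, fell by 0.81 on the log2 scale in KO (SE 0.13, limma adjusted p = 0.0344), the 1 gene of the list past the threshold. That call held under 7 of 15 alternatives, not without WT array 1, 2 or 3 or KO array 3, and was -0.20 with probe sets averaged. Wnt2, a ligand gene of the posterior second heart field, read 1225, 506 and 285 in KO and 1271, 1270 and 1033 in WT (-1.08, SE 0.38, limma adjusted p = 0.154), low on KO array 2 as well. The summed signal of the list was 3973 to 10051 in KO and 8997 to 10948 in WT. The part of these genes in the Hox values was not tested. Without KO array 3 the median log2 fold change of the 11 tested Hox genes was 0.19, with 0 of them past the threshold.

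**Figure D4:**
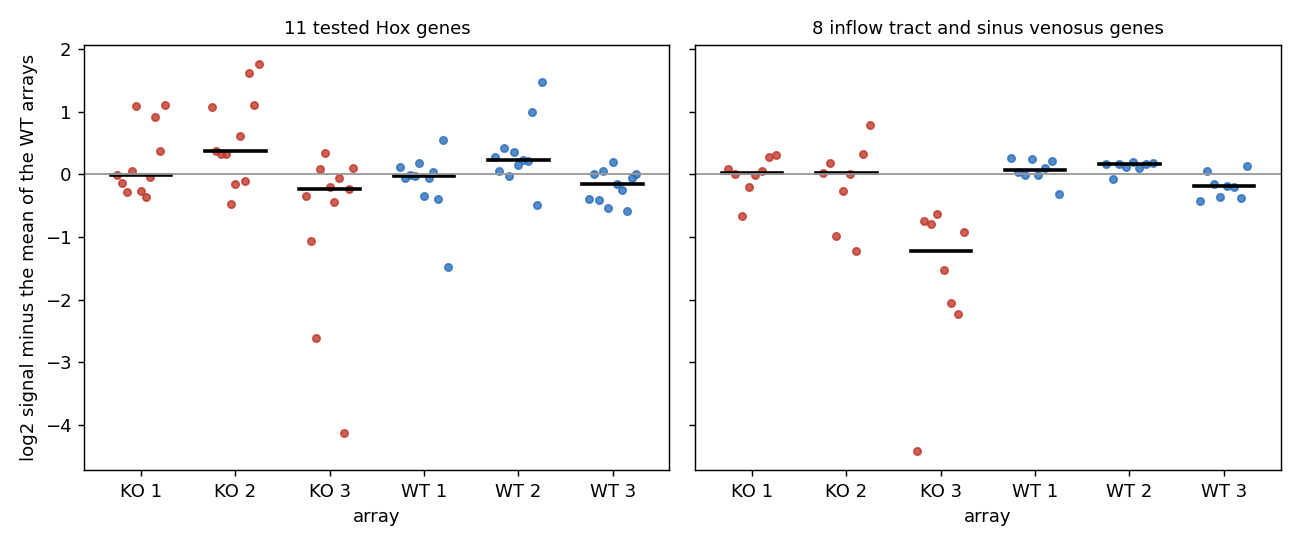
Log2 signal of each gene minus its mean over the WT arrays, by array, KO (red) left of WT (blue); left, the 11 tested Hox genes, right, 8 inflow tract and sinus venosus genes chosen after seeing the data; points are genes and black bars medians. KO array 2 has the highest Hox median (0.37), and all 8 inflow genes are below 0 on KO array 3 (median -1.23).

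The partners and regulators of Hox proteins were read from the same fit, and none of those tested passed. Of the TALE cofactors 8 of 9 were measured and 7 tested, with 0 higher and 0 lower past the threshold and a median log2 fold change of -0.09. Meis1, a cofactor of Hox proteins in blood and heart progenitors, read 1358, 1226 and 1332 in KO and 1641, 1631 and 1615 in WT. All KO arrays were below all WT arrays, yet the estimate, -0.32 on the log2 scale (SE 0.09, limma adjusted p = 0.0929), missed the threshold. Pbx2 had -0.24 (SE 0.08, limma adjusted p = 0.147) and Pknox2 0.33 (SE 0.22). Of the upstream factors, Cdx1, Cdx2, Cdx4 and Egr2, which open or segment the Hox domain in the early trunk and hindbrain, were below the limit on all 6 arrays.

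In the retinoic acid pathway 14 of 16 measured genes were tested, 0 passed, and the median was -0.02. Aldh1a2, the enzyme that makes retinoic acid in the embryo and chosen after its values were seen, read 467, 650 and 198 in KO and 304, 427 and 414 in WT. It was highest on KO array 2 and lowest on KO array 3, as several Hox genes were, with a log2 fold change of 0.06 (SE 0.34). Of the 16 measured genes, 4 were highest on array 2 in both groups and 7 had KO array 3 as the lowest KO array. Only 1 of the 16 followed the Hox order in both groups. Aldh1a2 is also on the epicardium and inflow tract lists, so these lists are not separate from it. Rara, a retinoic acid receptor gene, read 28.3, 107 and 13.4 in KO and 113, 132 and 82.3 in WT, with KO arrays 1 and 3 below the limit, and had -1.64 (SE 0.63, limma adjusted p = 0.177). Crabp2, a carrier protein for retinoic acid, had -0.42 (SE 0.24).

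Chromatin regulators that hold Hox clusters silent or active were mostly well above the limit. All 15 measured Polycomb subunits were tested, 0 passed, and the median was 0.04. Suz12, of the complex that methylates histone H3 at silent Hox genes, had -0.26 (SE 0.09, limma adjusted p = 0.133) and Phc3 0.29 (SE 0.13, limma adjusted p = 0.242). Of the 9 MLL and trithorax-type regulators 0 passed, 2 were higher and 7 lower by sign, and the median was -0.22. Wdr5, a subunit shared by the MLL complexes, read 1014, 962 and 912 in KO and 1159, 1233 and 1254 in WT, without overlap, with -0.34 (SE 0.10, limma adjusted p = 0.0958). Men1, the MLL partner menin, had -0.24 (SE 0.10, limma adjusted p = 0.224), and Kmt2b, a methyltransferase of the MLL family, -0.27 (limma adjusted p = 0.276). Of 10 other homeobox genes of the same class 2 were tested, Meox1 of the somites (0.42, SE 0.26) and Evx2, which lies next to the Hoxd cluster (-0.26, SE 0.35), and 0 passed.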

How the data were processed

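RNA of E10.5 hearts was hybridised to Affymetrix mouse expression arrays, 3 for KO and 3 for WT, and the genotype label of a sample set its group. Each deposited value is a linear signal intensity of a probe set. The submitters' processing notes name MAS5 and Affymetrix Expression Console, without a version in the sources used here. In the deposited intensity values the mean of each array after trimming 2% at either end was 500, so no scaling was added. MAS5 sets matched against mismatched probes, which makes dim probe sets noisy. The 64 control probe sets were left out. Of the other 45037, 34945 carried 1 gene symbol, 932 several and 9160 were unnamed here; 34741 were matched by identifier to RefSeq and 0 symbols were updated. Per-sample columns without a sample numbered 0.

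Signals were taken to log2. KO minus WT was fitted with limma 3.58.1 (R 4.3.3) over 12712 genes above the limit on at least 3 arrays, using an eBayes variance trend on mean signal, and adjusted by Benjamini-Hochberg at 0.05. In 5 simulated runs on 12712 genes, each with 200 changed genes, 40.3%, 65.7% and 90.9% of genes changed 1.5-, 2- and 4-fold were recovered for KO minus WT. The changed genes were drawn from all tested genes, with a median standard error of 0.14 against 0.38 for the Hox genes. The rates therefore do not carry over to the Hox genes. All members were accounted for, with values per array for those tested or without overlap. Other lists name members past the threshold and up to 3 with the smallest p, and members chosen after their values were seen are named as such. Markers of 13 cell types were summed per array. Members and lists were chosen with earlier results of these data known, and the inflow and outflow tract lists after seeing these values. Alternatives covered scaling, filter, floor, probe set choice, variance trend, a replicate block, Xist as a covariate and leaving out each array. Same-numbered KO and WT arrays deviated together at r = 0.018, 0.057 and 0.015, so the numbers were not used as pairs. Figures were drawn with matplotlib 3.10.9.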

Additional observations from a re-analysis of the deposited data

How the results depend on the processing

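The limits are the number of arrays, dim Hox probe sets and a limit on low signal that is a choice. No Hox gene passed in the fit as reported or under any alternative run, and 0 of 16 tested Hox probe sets did when each was tested on its own. Over 156 values of the 11 genes under alternatives, 139 kept their sign, 17 changed it, and the smallest adjusted p was 0.165. Changes of sign without 1 array were Hoxa2 (range -0.18 to 0.53), Hoxa3 (-0.61 to 0.11), Hoxa4 (-1.45 to 0.017), Hoxa9 (-0.068 to 0.72), Hoxb3 (-0.40 to 0.13), Hoxb4 (-0.19 to 0.033) and Hoxc4 (-1.60 to 1.26). With Xist as a covariate the sign changed for Hoxa3 (0.50), Hoxa4 (0.74), Hoxa9 (-0.11), Hoxb3 (0.51) and Hoxc4 (2.60), and the median of the tested Hox genes was 0.51; that fit rests on KO array 2, the KO array with high Xist. With probe sets averaged, Hoxa5 had -0.68 and Hoxb3 0.23, and with a floor at the limit Hoxc4 had 0.41. The cause was not tested. Leaving out each array, the median was -0.18 to 0.19.

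The number of all genes past the threshold, 162 as reported, was 83 with median centring (80.7% higher in KO, against 61.7%), 1 without the filter, 291 with the stricter one, 0 with probe sets averaged, 1 without the trend and 6 with Xist as a covariate. It was 0 to 916 without 1 array: 916, 65 and 2 when KO array 1, 2 or 3 was dropped, and 0, 0 and 4 when WT array 1, 2 or 3 was. With the replicate number as a block it was 189, with 0 Hox genes, and the block changed no Hox call. Detected Hox genes in WT numbered 5 with the limit at the 50th percentile. When 2 arrays sufficed they numbered 11 in KO and 10 in WT, which turns the order of the groups, and at the 30th percentile 9 in KO and 10 in WT. In KO they numbered 6 to 11 without 1 array, 11 being without KO array 3, an alternative chosen after seeing the data. WT gave 8 to 9. Shares over all genes were not computed for these settings, so the turned order of the groups cannot be read as a result about Hox genes.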

Other observations

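Of 16 noncoding genes of the Hox clusters 3 were measured and 0 tested. Hoxb5os, annotated as antisense to Hoxb5, read 35.8, 124 and 33.5 on KO arrays 1, 2 and 3 and 38.2, 30.5 and 7.33 on WT arrays 1, 2 and 3, above the limit on KO array 2 alone. Hoxa11os and Hoxd3os1 were below it on all 6 arrays. The 3 probe sets shared by 2 Hox genes were above the limit on at most 2 arrays. The brighter of the 2 that Hoxd4 and Hoxd3 share read 39.6, 78.7 and 10.4 in KO and 30.4, 53.9 and 36.8 in WT, with array 2 the highest of each group, and the one that Hoxb8 and Hoxb7 share was below the limit throughout. Hoxc5 read 23.3, 169 and 16.8 in KO and 40.9, 38.3 and 40.7 in WT, so that only KO array 2 exceeded the limit for it.

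Among the other marker lists, outflow tract genes summed to 9190 to 10481 in KO and 10757 to 11649 in WT, and second heart field genes to 1629 to 2343 in KO and 2704 to 3223 in WT, without overlap in either. Isl1, the progenitor factor on both lists, read 598, 800 and 1000 in KO and 1121, 1169 and 1082 in WT. Neural crest markers summed to 2974 to 4899 in KO and 2347 to 2925 in WT, most of it from Ednrb, an endothelin receptor gene (0.53, SE 0.17, limma adjusted p = 0.116). Of the 3 tested, 1 had a positive sign and 2 a negative one, for a median of -0.07. Macrophage and platelet markers summed to 2824 to 3144 in KO and 1907 to 2332 in WT, and Lyz2, the lysozyme gene of myeloid cells, rose by 1.38 on the log2 scale (SE 0.25, limma adjusted p = 0.0374). Liver and yolk sac markers summed to 381 to 1850 in KO and 1576 to 7441 in WT, limb bud markers to 3128 to 5825 in KO and 4835 to 5747 in WT, endothelial markers to 5616 to 6435 in KO and 5190 to 5897 in WT, and erythroid markers to 60213 to 68468 in KO and 55852 to 67786 in WT. On the outflow tract list Bmp4, a growth factor gene, fell by 0.50 in KO (SE 0.09, limma adjusted p = 0.0374). The calls of Lyz2 and Bmp4 each held under 6 of 15 alternatives and were lost without WT array 1, 2 or 3 or KO array 3, that of Lyz2 also without KO array 2.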
